A study of Mus musculus with 11 samples.

Results

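Interferon-stimulated genes are the genes that cells switch on when an interferon binds its receptor. A list of 47 of them, taken by symbol, was read from RNA-Seq counts of hematopoietic stem cells (HSC). The 47 symbols matched 48 of the 37991 gene IDs of the table, because Psmb9 stands at a pair of IDs. HSC came from the bone marrow of C57BL/6 mice at 8 weeks of age, in 1000-cell aliquots sorted as Lin- CD48- c-Kit+ Sca1+ CD135- CD150+. The 4 control libraries were labelled wild type, and the study's methods call these mice littermate controls. The 4 NA10hd libraries came from mice that carry the NUP98-HOXA10HD fusion in the ROSA26 locus behind a loxp-stop-loxp cassette, opened by Vav-Cre. The 3 NV libraries came from mice that express NrasG12D, also by way of Vav-Cre. This Cre acts throughout the hematopoietic system, so the oncogene was present in HSC and in all their blood progeny. For other assays the study gives its littermate controls as NA10hd LSL/+, with no Cre named, and for RNA-Seq it gives no allele of the control mice. The study calls the libraries of a group biological replicates, and whether each aliquot came from a separate mouse is not given in the sources used here.

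Type I interferons signal through the receptor chains Ifnar1 and Ifnar2 and the kinases Jak1 and Tyk2. The kinases activate factors of the Stat family, and a complex that holds Stat2 and Irf9 binds a promoter element called the ISRE. Interferon gamma signals through Ifngr1 and Ifngr2, and pairs of Stat proteins bind another element, the GAS. The products of the induced genes sense and degrade foreign RNA, attack the vacuoles of intracellular microbes, conjugate the ubiquitin-like protein Isg15 and process antigens. In HSC, interferon exposure is known to drive cells out of quiescence.

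The libraries held between 5464815 and 12610189 counts (control), between 7624638 and 12180230 (NA10hd) and between 9981499 and 14283008 (NV). Genes that define HSC were present in every library, as the summed CPM (counts per 1000000 of the library total scaled by TMM) of Procr, Mecom and Hlf ranged over 607 to 911 for control, 722 to 1080 for NA10hd and 501 to 626 for NV. Defining genes of T cells (Cd3e, Cd3g), B cells (Pax5, Ms4a1) and plasmacytoid dendritic cells (Siglech), the main blood source of interferon alpha, were at 0 counts in all 11 libraries. Both Xist and Y-linked counts were found in control replicates 2 and 3 and in all 3 NV libraries, NA10hd replicate 4 held Xist but no Y-linked counts, and the other 5 libraries held Y-linked counts only. NA10hd replicate 4 therefore stood apart from its group, and values without it are given where a result turned on it. Endogenous gene counts do not tell the NrasG12D allele or the fusion from the wild type sequence. Differentially expressed genes (DEGs) had to pass 0.05 on the adjusted p (Benjamini-Hochberg, over all genes) and change by more than 1.5-fold in the quasi-likelihood test of edgeR. Nras was not a DEG in NV HSC, at 111 to 113 CPM against 68.3 to 93.9 CPM in control.

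Interferon-stimulated genes were higher in NV HSC than in control HSC. Of the 46 members with enough counts to be tested, 13 were DEGs, and all 13 were higher. These were Oas2, Mx1, Irf7, Oas3, Usp18, Ifi47, Oas1a, Igtp, Rtp4, Irgm2, Iigp1, Irgm1 and Irf9. This is 28.3% of the tested members, where 4.76% of all 13462 genes tested were called in either direction and 2.55% were called higher. Fold changes were positive for 44 of the 46 members against 48.6% of all genes, and the median log2 fold change was 0.55 against -0.01 over all genes. An unadjusted p under 0.05 was found for 31 members, each of them with a positive fold change, where 9.55% of all genes had such a p and were higher. Every NV library lay above every control library for 27 members, among them all 13 DEGs, and below for 0, where 9.49% of all tested genes lay above in this way. DESeq2 called 17 members, the 13 and Dtx3l, Ifit1, Oasl2 and Zbp1, against 6.92% of all genes. With all 3 groups in one fit 6 of the 13 were called, against 1.11% of all genes, and Iigp1, Irf9, Irgm1, Irgm2, Mx1, Oas1a and Rtp4 were not. The count of DEGs was 6 without NV replicate 2 and also 6 without NV replicate 3, and between 10 and 14 without any other library. Ifi47, Igtp, Irf7, Oas2, Oas3 and Usp18 were called whichever of the 7 libraries was left out.

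No member was a DEG by edgeR in NA10hd HSC compared with control, and the lowest adjusted p was that of Irf7. At this test 0.00766% of all genes tested were called, a single gene. Of the members, 35 had positive and 11 had negative fold changes, with a median log2 fold change of 0.15 against 0.02 over all genes, of which 51.5% were positive. An unadjusted p under 0.05 was found for 8 members, where 6.62% of all genes had such a p and were higher. All 8 had positive fold changes, namely Irf7, Irf1, Ifit3, Mx1, Dtx3l, Parp14, Psmb8 and Rtp4. DESeq2 called 1 member, Irf7, at an adjusted p of 0.0157, where it called 2.0% of all genes, and limma-voom called 0. In 4 members (Isg15, Mx1, Psmb8 and Rtp4) every NA10hd library lay above every control library, against 3.9% of all genes tested. The contrasts of NV and of NA10hd with control used the same 4 control libraries.

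The direct contrast of NA10hd with NV HSC gave 5 DEGs among the 46 members, all lower in NA10hd HSC, where 5.09% of all genes were called and 2.79% were called lower. They were Oas2, Usp18, Oas3, Ifi47 and Oas1a, each also a DEG of NV HSC against control. Both contrasts used the same 3 NV libraries, so these calls are not independent of each other. The median log2 fold change of the members was -0.36, against 0.01 over all genes, and 39 of 46 were negative, where 50.8% of all genes were positive. DESeq2 called 8 members, the 5 and Cxcl10, Ifit2 and Irgm1, against 10.7% of all genes. Leaving out NV replicate 2 gave 2 DEGs here and leaving out NV replicate 3 gave 1, while any other library left out gave 4 to 6.

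Averaged over the 46 members, log2(CPM + 1) lay 0.59 to 0.67 above the control mean in the 3 NV libraries and 0.14 to 0.29 above it in the 4 NA10hd libraries. The 4 control libraries themselves ranged from -0.13 to 0.12. On this mean NV libraries lay above all others. The lowest NA10hd library (0.144) was only just above the highest control library (0.122). NV libraries had 42 or 43 of the 46 members above the control mean, NA10hd libraries 29 to 33 and control libraries 11 to 32. These means and counts were not taken over all genes. Members took 0.376% to 0.413% of the counts of control libraries, 0.398% to 0.443% for NA10hd and 0.561% to 0.596% for NV. On this share, which is not scaled by TMM, NA10hd and control libraries overlapped and NV libraries lay above both. In such bulk libraries, more cells with a transcript and more RNA per cell cannot be told apart.

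**Figure D1:**
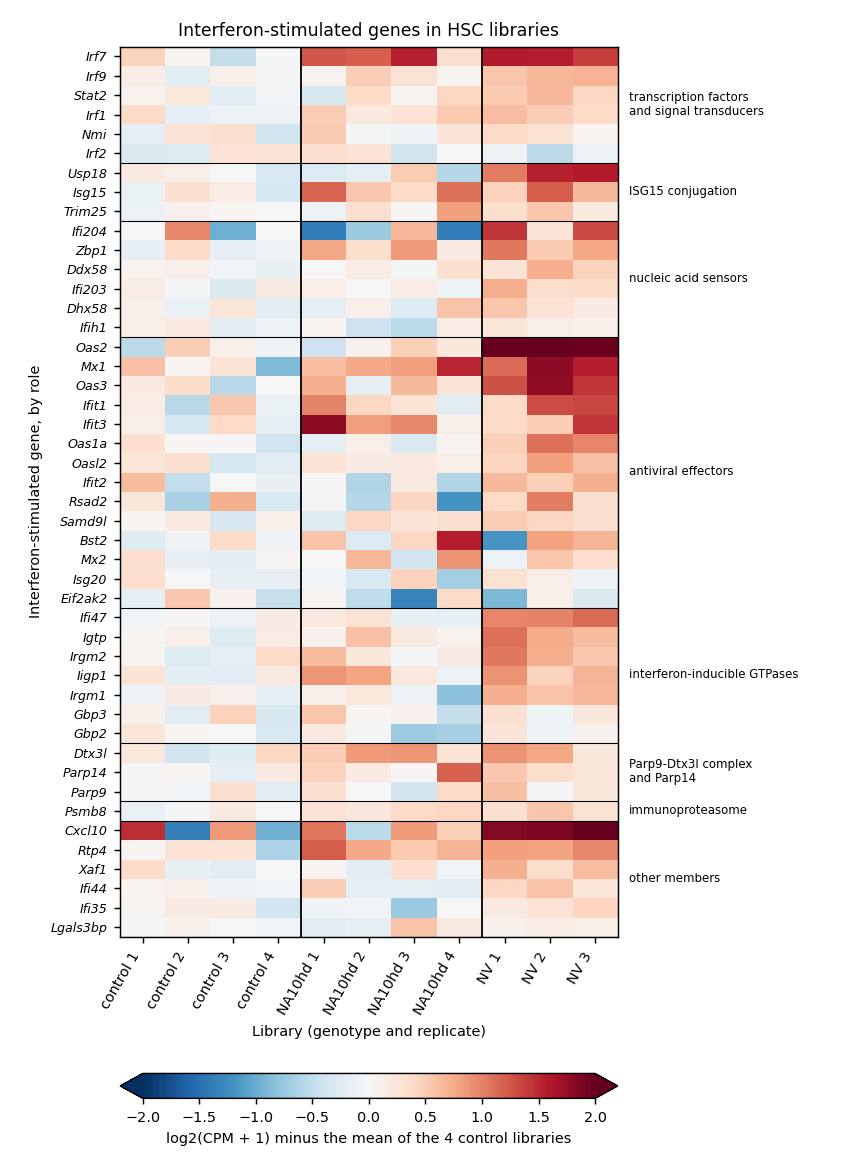
Heat map of the 46 tested members (rows, grouped by role) in the 11 libraries (columns), coloured by log2(CPM + 1) minus the mean of the 4 control libraries, from blue (lower) to red (higher), with the scale ending at 2 in either direction. NV columns are red for 42 or 43 of the 46 rows, and NA10hd columns for 29 to 33.

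Other features of the libraries moved together with the NV genotype. All 5 proliferation genes on the marker list (Mki67, Top2a, Ccnb1, Cdk1 and Birc5) were DEGs of NV HSC, and their summed CPM was 586 to 752 in NV against 120 to 234 in control and 35.1 to 97.2 in NA10hd. Megakaryocyte markers summed to 182 to 444 CPM in NV and 89.3 to 111 CPM in control, with 3 of 5 called higher, and erythroid markers to 42.6 to 82.2 against 18.4 to 24.9 CPM, with both tested genes called higher. Myeloid markers, at 505 to 534 against 443 to 562 CPM, came almost wholly from Lyz2, and no tested myeloid marker was a DEG. Ly6a, which encodes the sort marker Sca1 and is itself known to respond to interferon, was a DEG of NV HSC, at 592, 446 and 407 CPM in NV against 255 to 328 CPM in control (log2 fold change 0.70, SE 0.14, adjusted p = 0.0126). Of the other genes of the sort gate, Slamf1 (CD150) was at 63.2 to 77.3 CPM in NV against 66.4 to 139 CPM in control (-0.61, SE 0.21, adjusted p = 0.134) and Kit at 284 to 306 against 244 to 356 CPM (-0.11, SE 0.13, adjusted p = 0.729). Of the genes gated out, Cd48 was at 2.22 to 5.89 CPM in NV, 0.16 to 3.32 CPM in control and 0 to 0.398 CPM in NA10hd. It was not called in NV against control (1.0, SE 0.83, adjusted p = 0.574), and in NA10hd against NV it was called by DESeq2 and limma-voom but not by edgeR with each comparison fitted on its own libraries (adjusted p = 0.0643). Flt3 (CD135) was at 3.59 to 10 CPM in NV against 2.07 to 17.4 CPM in control (-0.53, SE 0.59, adjusted p = 0.69). All 3 HSC genes had negative fold changes in NV HSC at an unadjusted p under 0.05. Of these Procr was a DEG, at 79.7, 90.7 and 69.3 CPM in NV against 124 to 139 CPM in control (log2 fold change -0.72, SE 0.13, adjusted p = 0.00871), and Mecom (-0.31, adjusted p = 0.247) and Hlf (-0.47, adjusted p = 0.184) were not. Of the 6 T and NK cell markers 3 were at 0 in all libraries and 2 were tested. Klrb1c was lower in NV HSC, at 0.0677 to 2.55 CPM against 14.1 to 42.1 CPM in control (log2 fold change -4.20, SE 0.69, adjusted p = 0.00443), and Nkg7 was at 28.7 to 51.3 against 2.71 to 19.5 CPM (1.71, SE 0.46, adjusted p = 0.053, called by DESeq2 and limma-voom). Endothelial markers summed to 146 to 185 CPM in NV and 198 to 239 CPM in control, and 1 of the 4 tested, Emcn, was a DEG (log2 fold change -1.45, SE 0.22, adjusted p = 0.00306). Tek had the opposite sign, with all NV libraries (98.8 to 128 CPM) above control (72 to 96.1 CPM), and did not pass (0.42, SE 0.15, adjusted p = 0.126). The part of cell cycle, HSC and lineage composition or the Sca1 gate in the member values was not tested. Fitted only on libraries that held both Xist and Y-linked counts (2 control and 3 NV), 10 members were called in NV HSC, of which 9 were among the 13, against 2.18% of all genes.

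The promoters of the members were read for the ISRE and the GAS. Promoter sequences of RefSeq (GRCm38.p6, 250 bases before to 50 bases after the gene start) were at hand for 36 of the 47 genes, and not for Usp18, Oas2, Mx1, Rtp4, Iigp1 and 6 members that were not DEGs. The ISRE was searched as GAAANNGAAA on both strands, so TTTCNNTTTC is the same element on the other strand. It was found in 19 of the 36 promoters, or 52.8%, and in 3.99% of the 27025 genes with a promoter sequence. The GAS, TTCNNNGAA, which reads alike on both strands, was found in 11 of 36, or 30.6%, and in 9.55% of all. Matches can overlap each other, as they do in Irgm1, Isg15 and Oas1a. The ISRE was present in 5 of the 8 promoters of DEGs of NV HSC and in 14 of the 28 of other members, and Ifi47, Irf7 and Irf9 had neither element in this window. A match to these letters is a description of the sequence and not evidence of binding. The last 120 bases before the gene start are shown for 5 DEGs of NV HSC with an ISRE there (Igtp, Irgm2, Irgm1, Oas1a, Oas3), and for Isg15 and Ifit1, members with an ISRE that were not DEGs. They are written 5′ to 3′ on the strand of the gene, with ISRE matches in capitals.
Igtp (chr11:58199436-58199555, plus strand): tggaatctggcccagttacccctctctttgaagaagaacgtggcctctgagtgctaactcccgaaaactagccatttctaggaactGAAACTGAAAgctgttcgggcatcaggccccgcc
Irgm2 (chr11:58214857-58214976, plus strand): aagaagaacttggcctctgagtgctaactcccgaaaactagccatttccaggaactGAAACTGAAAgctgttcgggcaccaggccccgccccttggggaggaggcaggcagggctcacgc
Irgm1 (chr11:48871421-48871540, minus strand): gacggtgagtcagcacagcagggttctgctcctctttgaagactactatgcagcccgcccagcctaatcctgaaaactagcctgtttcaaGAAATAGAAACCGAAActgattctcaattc
Oas1a (chr5:120907526-120907645, minus strand): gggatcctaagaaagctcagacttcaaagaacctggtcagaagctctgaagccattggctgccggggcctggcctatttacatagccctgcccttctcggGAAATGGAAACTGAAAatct
Oas3 (chr5:120777660-120777779, minus strand): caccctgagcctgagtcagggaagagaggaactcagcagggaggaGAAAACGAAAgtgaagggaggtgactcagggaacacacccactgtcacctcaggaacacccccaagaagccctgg
Isg15 (chr4:156200819-156200938, minus strand): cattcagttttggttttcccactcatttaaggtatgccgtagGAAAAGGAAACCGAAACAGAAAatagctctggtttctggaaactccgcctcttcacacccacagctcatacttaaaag
Ifit1 (chr19:34640769-34640888, plus strand): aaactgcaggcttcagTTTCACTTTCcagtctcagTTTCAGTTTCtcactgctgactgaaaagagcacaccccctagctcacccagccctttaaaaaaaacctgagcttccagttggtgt
The Igtp and Irgm2 windows share an unbroken run of 38 bases, and in both a GAS starts 11 bases before the ISRE. The ISRE starts 34 bases before the gene start in Igtp and 64 bases before it in Irgm2.

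The transcription factors and signal transducers on the list were Irf1, Irf2, Irf7, Irf9, Stat2 and Nmi, and 2 of the 6 were DEGs of NV HSC. Irf7, which amplifies the type I interferon response (chr7:148448605-148452380 of NCBIM37, minus strand), was at 44.5, 33.6, 22.9 and 31.2 CPM in control, 77.6, 74.7, 96.2 and 40.9 CPM in NA10hd and 98.7, 97.4 and 85.1 CPM in NV HSC. All NV libraries lay above control, and so did all NA10hd libraries but replicate 4, which was below the highest control library. The log2 fold change was 1.51 in NV (SE 0.20, adjusted p = 0.00169) and 1.14 in NA10hd (SE 0.28, adjusted p = 0.201). Without NA10hd replicate 4 the value in NA10hd was 1.34 by edgeR (adjusted p = 0.0885) and 1.33 by DESeq2, which called it (adjusted p = 0.000175). Irf9, the DNA-binding part of the complex with Stat2 (chr14:56222408-56228867, plus strand), was at 171, 132, 168 and 150 CPM in control, 163, 217, 189 and 160 CPM in NA10hd and 228, 245 and 252 CPM in NV HSC. NV libraries were above all others, with a log2 fold change of 0.63 over control (SE 0.12, adjusted p = 0.0104), and Irf9 was not a DEG without control replicate 2, NV replicate 2 or NV replicate 3 (adjusted p up to 0.0655). In NA10hd the value was 0.24 (SE 0.16, adjusted p = 0.603).

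The remaining factors were not DEGs in any contrast. Stat2 was at 48.5, 53.4, 38.9 and 44.2 CPM in control, 36.8, 61.1, 47.6 and 61.5 CPM in NA10hd and 66.8, 73.1 and 61.5 CPM in NV HSC (log2 fold change 0.53 in NV, SE 0.16, adjusted p = 0.0827; 0.17 in NA10hd, SE 0.22, adjusted p = 0.817). Irf1, an activator of interferon gamma targets, was at 227, 153, 161 and 166 CPM in control, 248, 200, 214 and 250 CPM in NA10hd and 267, 247 and 229 CPM in NV HSC (0.48 in NV, SE 0.14, adjusted p = 0.075, and 0.37 in NA10hd, SE 0.17, adjusted p = 0.402). The NV libraries of both genes lay above all control libraries, and Irf1 passed the test in NV without control replicate 1, its highest control library (adjusted p = 0.0196). Irf2, which competes with Irf1 and represses, was at 19, 19.2, 29.0 and 28.4 CPM in control, 29.6, 28.7, 17.8 and 23.4 CPM in NA10hd and 21.8, 16.1 and 21.4 CPM in NV HSC, with overlapping groups. Its log2 fold change of -0.28 in NV (SE 0.24, adjusted p = 0.595) was one of the 2 negative values among the members, and in NA10hd it was 0.06 (SE 0.28, adjusted p = 0.952).

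Of the ISG15 conjugation genes Isg15, Usp18 and Trim25, only Usp18 was a DEG of NV HSC. Usp18, the protease that takes Isg15 off its targets and restrains signalling at the receptor (chr6:121195924-121220934, plus strand), was at 23.1, 22.1, 20.3 and 16.2 CPM in control, 16.5, 17.6, 29.1 and 13.4 CPM in NA10hd and 42.3, 61.0 and 62.6 CPM in NV HSC. The lowest NV library was above the highest library of both other groups. The log2 fold change was 1.43 in NV over control (SE 0.21, adjusted p = 0.00227), -0.08 in NA10hd over control (SE 0.32, adjusted p = 0.941) and -1.53 in NA10hd over NV (SE 0.31, adjusted p = 0.0193). The last of these was no longer called without NV replicate 2 or NV replicate 3 (adjusted p up to 0.126). Isg15, the ubiquitin-like protein itself, was low, at 4.29, 6.26, 5.43 and 3.64 CPM in control, 12.1, 7.49, 6.57 and 11.5 CPM in NA10hd and 7.01, 12.4 and 8.12 CPM in NV HSC. Control libraries lay below all others, but the log2 fold changes of 0.89 in NV (SE 0.37, adjusted p = 0.21) and 0.93 in NA10hd (SE 0.47, adjusted p = 0.465) did not pass.

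**Figure D2:**
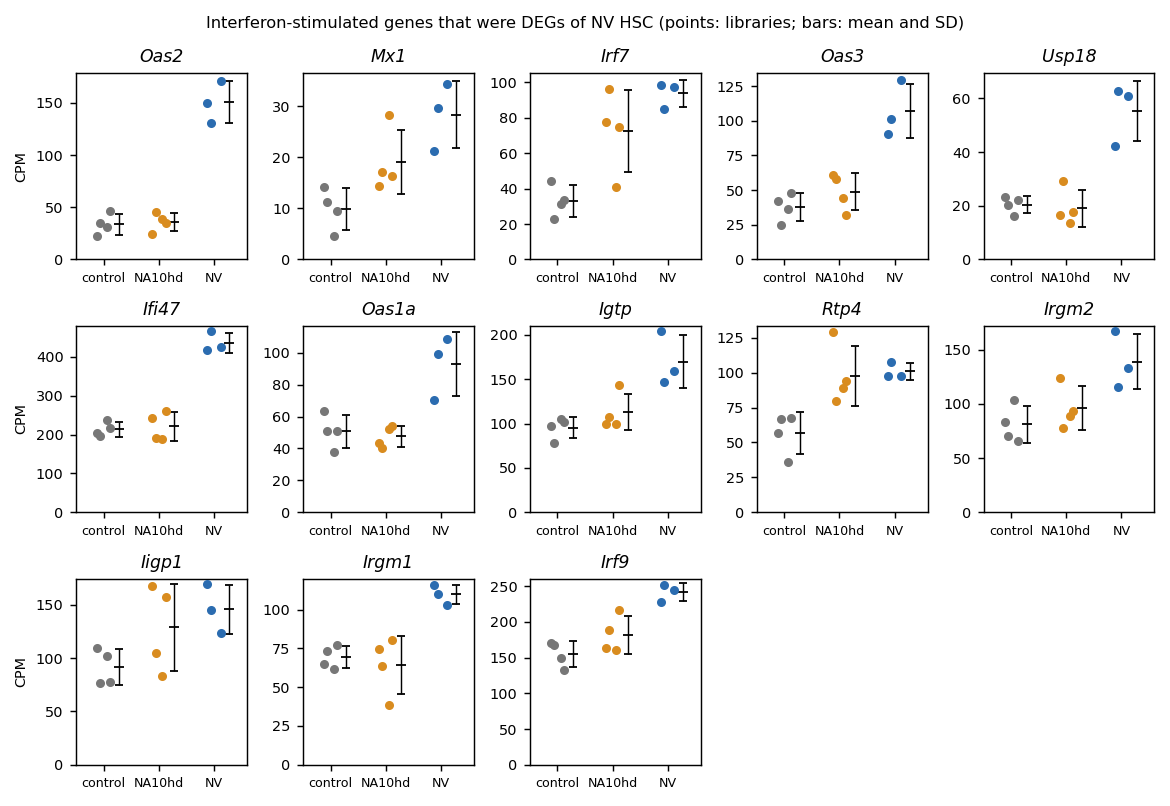
CPM of the 13 members that were DEGs of NV HSC, 1 panel per gene and with a y axis from 0, for control (grey), NA10hd (orange) and NV (blue) libraries; points are libraries and bars give the mean and SD. In each panel the NV points lie above all control points, while the NA10hd points lie above all control points in the panels of Mx1 and Rtp4 and overlap with them in every other panel.

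Among the 6 nucleic acid sensors (Ddx58, Ifih1, Dhx58, Zbp1, Ifi203 and Ifi204), 0 were DEGs of NV HSC by edgeR, where 4.76% of all genes were called. All 6 fold changes were positive. An unadjusted p under 0.05 was found for 3 of them, DESeq2 called 1 (Zbp1) and limma-voom called 0. Ddx58, the RNA sensor RIG-I, was at 86.4, 89.9, 78.9 and 73.8 CPM in control, 82.5, 91.3, 80.7 and 103 CPM in NA10hd and 99.3, 137 and 113 CPM in NV HSC. NV libraries were above control but not above all NA10hd libraries (log2 fold change 0.50 in NV, SE 0.14, adjusted p = 0.0718, and 0.12 in NA10hd, SE 0.17, adjusted p = 0.821). Ifih1, the RNA sensor MDA5, was at 96.6, 101, 75.2 and 81.2 CPM in control, 90.2, 65.7, 60.3 and 97.6 CPM in NA10hd and 104, 95.5 and 94.2 CPM in NV HSC. The groups overlapped, with log2 fold changes of 0.14 in NV (SE 0.14, adjusted p = 0.652) and -0.17 in NA10hd (SE 0.20, adjusted p = 0.788). Ifi204 had the fewest counts of any tested member, between 0 and 5.97 CPM, and the largest standard errors.

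The 14 antiviral effectors held 4 DEGs of NV HSC, and 3 of these were oligoadenylate synthetases, enzymes that make the activator of the RNA-degrading enzyme RNase L on sensing double-stranded RNA. All 3 lie on chromosome 5, where Oas2 and Oas3 are neighbours and Oas1a lies beyond other Oas1 genes. Oas2 (chr5:121180342-121199862, minus strand) was at 22.5, 46.6, 35 and 31.0 CPM in control, 24.2, 34.7, 45.7 and 38.6 CPM in NA10hd and 150, 171 and 131 CPM in NV HSC. This was the largest fold change of any member, 2.14 on the log2 scale (SE 0.21, adjusted p = 0.000272), or 4.41-fold. NA10hd and control libraries overlapped, with log2 fold changes of 0.09 in NA10hd over control (SE 0.28, adjusted p = 0.928) and -2.08 in NA10hd over NV (SE 0.23, adjusted p = 0.000779). Oas3 (chr5:121203107-121227670, minus strand) was at 42.2, 47.7, 24.8 and 36.6 CPM in control, 60.9, 32.4, 58.2 and 44.2 CPM in NA10hd and 90.6, 129 and 101 CPM in NV HSC. For Oas3 the log2 fold change was 1.5 in NV (SE 0.21, adjusted p = 0.00221), 0.38 in NA10hd (SE 0.27, adjusted p = 0.616) and -1.14 in NA10hd over NV (SE 0.25, adjusted p = 0.0256). The last value was not called once any NV library was left out (adjusted p up to 0.159). Oas1a (chr5:121346265-121357536, minus strand) was at 63.5, 51.0, 51.1 and 37.7 CPM in control, 43.7, 54.2, 40.2 and 52.1 CPM in NA10hd and 70.3, 109 and 99.6 CPM in NV HSC. It had log2 fold changes of 0.87 in NV (SE 0.20, adjusted p = 0.0244), -0.09 in NA10hd (SE 0.21, adjusted p = 0.905) and -0.97 in NA10hd over NV (SE 0.22, adjusted p = 0.028). Oas1a was not a DEG of NV HSC without control replicate 4, NV replicate 2 or NV replicate 3 (adjusted p up to 0.137), nor of NA10hd against NV without NA10hd replicate 3, NV replicate 2 or NV replicate 3 (adjusted p up to 0.173). The Oas and Ifit genes and the immunity-related GTPases form families of related genes, and how reads that map to several places were counted is not given in the sources used here.

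Mx1, a gene of the dynamin-like GTPase family (chr16:97668642-97684514, minus strand), was at 14.3, 9.48, 11.3 and 4.58 CPM in control, 14.5, 16.4, 17.1 and 28.4 CPM in NA10hd and 21.3, 34.3 and 29.6 CPM in NV HSC. Control libraries lay below all others. The log2 fold change was 1.52 in NV (SE 0.34, adjusted p = 0.0205) and 0.95 in NA10hd (SE 0.41, adjusted p = 0.38), and the call in NV was lost without NV replicate 2 or NV replicate 3 (adjusted p up to 0.108). Ifit1, which binds viral RNA caps, was at 30.2, 18.2, 40 and 24.8 CPM in control, 54.9, 36.6, 33.1 and 23.0 CPM in NA10hd and 35.9, 68.7 and 70.4 CPM in NV HSC. NV replicate 1 lay within the control range and the other NV libraries above it, and the log2 fold changes were 1.04 in NV (SE 0.29, adjusted p = 0.0572) and 0.39 in NA10hd (SE 0.31, adjusted p = 0.666). Ifit1 was called in NV without control replicate 3 or NV replicate 1 (adjusted p down to 0.0222). Ifit3 was at 5.19, 3.51, 6.46 and 4.04 CPM in control, 18.7, 9.16, 10 and 5.11 CPM in NA10hd and 6.45, 6.98 and 14.4 CPM in NV HSC. Both other groups overlapped with control at a single library each, and log2 fold changes were 0.94 in NV (SE 0.41, adjusted p = 0.234) and 1.16 in NA10hd (SE 0.51, adjusted p = 0.388), the highest value of any member in NA10hd.

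The effectors Rsad2, Bst2 and Eif2ak2 overlapped between the groups. Rsad2, which encodes the antiviral enzyme viperin, was at 83.0, 45.1, 117 and 57.5 CPM in control, 69.0, 47.4, 96.4 and 30.3 CPM in NA10hd and 94.3, 146 and 88.5 CPM in NV HSC (log2 fold change 0.53 in NV, SE 0.28, adjusted p = 0.349, and -0.31 in NA10hd, SE 0.35, adjusted p = 0.778). Bst2, the tether of budding virions, was at 11.4, 13.1, 18.1 and 13.1 CPM in control, 20.9, 11.1, 18.7 and 42.6 CPM in NA10hd and 5.50, 24.9 and 22.5 CPM in NV HSC. Its NV libraries lay on both sides of the control range, and log2 fold changes were 0.33 in NV (SE 0.42, adjusted p = 0.74) and 0.74 in NA10hd (SE 0.39, adjusted p = 0.489). Eif2ak2, the kinase PKR that halts translation on sensing double-stranded RNA, was at 41.5, 69.3, 50.3 and 34.2 CPM in control, 48.8, 32.9, 18.1 and 61.7 CPM in NA10hd and 24.8, 51.1 and 38.4 CPM in NV HSC. The groups overlapped, and the log2 fold change of -0.37 in NV (SE 0.28, adjusted p = 0.534) was the lowest of the members, with -0.28 in NA10hd (SE 0.34, adjusted p = 0.797). The remaining effectors Ifit2, Isg20, Oasl2, Mx2 and Samd9l had positive fold changes in NV HSC and were not DEGs.

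Of the 7 interferon-inducible GTPases, 5 were DEGs of NV HSC. These were the immunity-related GTPases Ifi47, Igtp, Irgm1, Irgm2 and Iigp1, which act on the vacuoles of intracellular microbes, while neither of the guanylate-binding proteins Gbp2 and Gbp3 was a DEG. Ifi47 (chr11:48890089-48910476, plus strand) was at 204, 216, 195 and 237 CPM in control, 242, 261, 192 and 188 CPM in NA10hd and 419, 425 and 466 CPM in NV HSC. The NV libraries were closely grouped and stood well clear of the rest, with log2 fold changes of 1.03 in NV (SE 0.11, adjusted p = 0.000484), 0.06 in NA10hd (SE 0.16, adjusted p = 0.921) and -0.99 in NA10hd over NV (SE 0.17, adjusted p = 0.00675). Without NV replicate 3 the last value was not called (adjusted p = 0.0643). Of the exon bases of Ifi47, 4.8% are shared with Olfr56 on the same strand. Exons on the opposite strand cover 16.8% of the exon bases of Ifi35, 9.4% of Parp9, 8.8% of Cxcl10, 8.0% of Dtx3l and 6.8% of Psmb8. The strand setting of the counts is not given in the sources used here.

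Igtp (chr11:58013058-58021093, plus strand) and Irgm2 (chr11:58028530-58036282, plus strand) are neighbours and share promoter sequence, as shown above. Igtp was at 97.1, 102, 78.3 and 105 CPM in control, 100, 143, 107 and 100 CPM in NA10hd and 204, 159 and 147 CPM in NV HSC. Irgm2 was at 83.7, 65.8, 70.4 and 104 CPM in control, 124, 93.9, 77.3 and 89.2 CPM in NA10hd and 167, 133 and 116 CPM in NV HSC. In both genes NV replicate 1 was the highest library and NV replicate 3 the lowest of NV, still above every control library. Log2 fold changes in NV were 0.83 for Igtp (SE 0.15, adjusted p = 0.00798) and 0.77 for Irgm2 (SE 0.18, adjusted p = 0.0264), and in NA10hd both were 0.25 (SE 0.18, adjusted p = 0.627 for Igtp, and SE 0.20, adjusted p = 0.666 for Irgm2). Irgm2 remained called in only 1 fit with a library left out, that without control replicate 4, its highest control library (adjusted p up to 0.116 in the others).

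Irgm1 (chr11:48675470-48685185, minus strand), known to be needed for normal HSC function in mice, was at 64.8, 77.3, 73.6 and 61.8 CPM in control, 74.6, 80.3, 63.9 and 38.5 CPM in NA10hd and 116, 103 and 110 CPM in NV HSC. NV libraries stood above all others, with a log2 fold change of 0.65 (SE 0.13, adjusted p = 0.0147) that was not called without any given NV library (adjusted p up to 0.0735). In NA10hd the value was -0.10 (SE 0.23, adjusted p = 0.898). Iigp1 (chr18:60535683-60552281, plus strand) was at 110, 77.2, 77.1 and 102 CPM in control, 168, 157, 105 and 83.7 CPM in NA10hd and 170, 124 and 145 CPM in NV HSC. NV libraries lay above control and within the NA10hd range but for replicate 1, with log2 fold changes of 0.67 in NV (SE 0.17, adjusted p = 0.0343) and 0.49 in NA10hd (SE 0.23, adjusted p = 0.428). The call in NV remained in 1 fit with a library left out, that without control replicate 1 (adjusted p up to 0.145 in the others). Gbp2 was at 150, 130, 127 and 102 CPM in control, 144, 123, 76.0 and 79.0 CPM in NA10hd and 150, 118 and 134 CPM in NV HSC, and its groups overlapped (log2 fold change 0.07 in NV, SE 0.15, adjusted p = 0.848, and -0.26 in NA10hd, SE 0.22, adjusted p = 0.677).

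**Figure D3:**
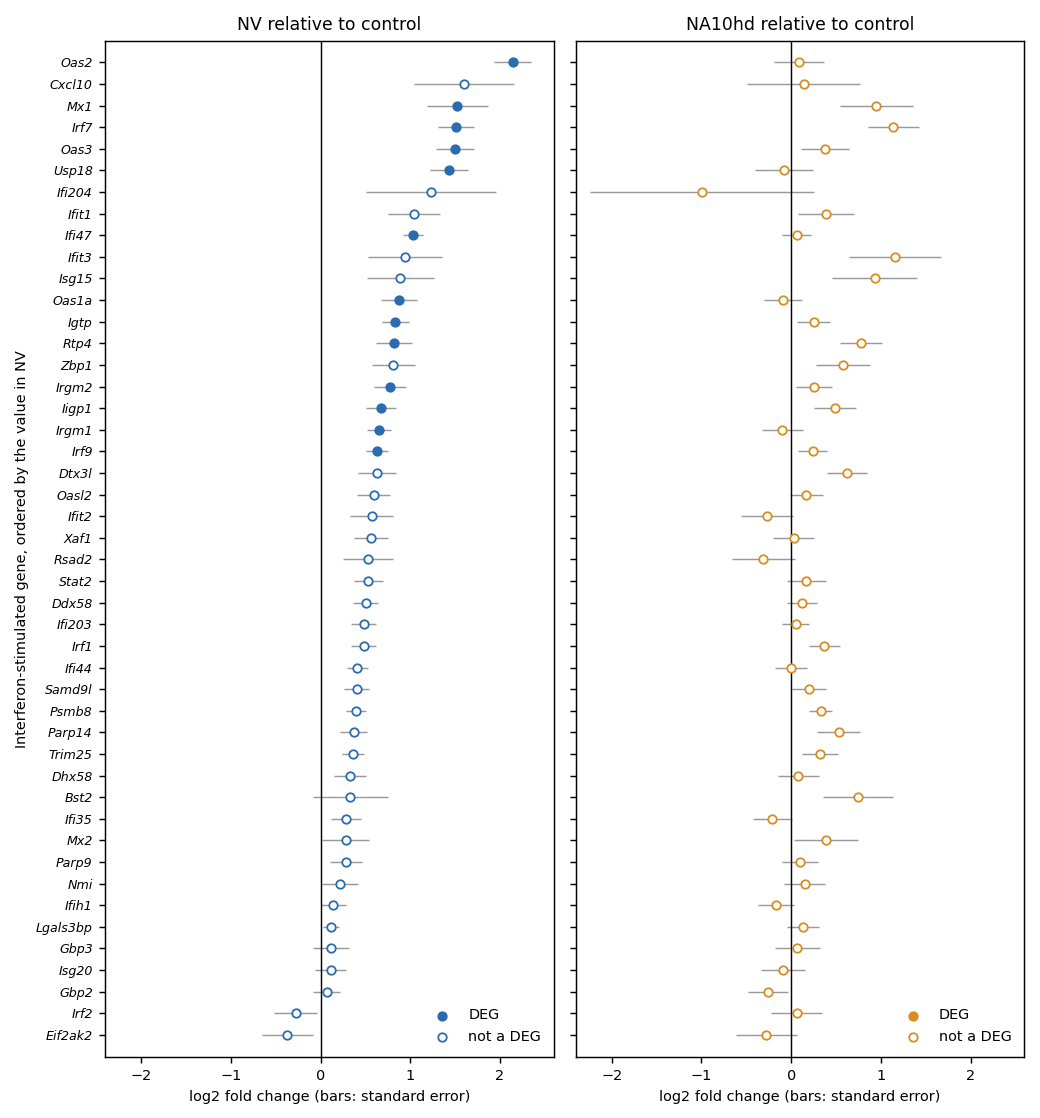
Log2 fold change with standard error of the 46 tested members in NV (left, blue) and NA10hd (right, orange) relative to control, in the order of the NV values; filled points are DEGs. The 13 filled points stand to the right of 0 in the left panel, where only Irf2 and Eif2ak2 stand to the left of 0, and the right panel has 0 filled points.

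The Parp9-Dtx3l complex, a pair of partners in ADP-ribosylation and ubiquitination, and Parp14 held 0 DEGs by edgeR in NV HSC, with 2 of 3 at an unadjusted p under 0.05 and log2 fold changes of 0.28 to 0.63. DESeq2 called 1 of them (Dtx3l) and limma-voom 0. In NA10hd HSC the 3 genes had log2 fold changes of 0.10 to 0.62. Psmb8, a catalytic subunit of the immunoproteasome, was at 345, 371, 429 and 376 CPM in control, 458, 446, 493 and 505 CPM in NA10hd and 472, 554 and 470 CPM in NV HSC. All NA10hd and all NV libraries were above control, but neither the log2 fold change of 0.39 in NV (SE 0.11, adjusted p = 0.0651) nor that of 0.33 in NA10hd (SE 0.13, adjusted p = 0.369) passed. Psmb9, its partner subunit, had 0 counts in all libraries at both of its IDs, which share 99.7% to 100% of their exon bases with each other, so its level was not determined.

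Of the other members Cxcl10, Rtp4, Ifi35, Ifi44, Xaf1 and Lgals3bp, only Rtp4 was a DEG of NV HSC. Rtp4, a chaperone of receptors (chr16:23610005-23614308, plus strand), was at 57.1, 67.8, 66.9 and 35.7 CPM in control, 129, 94.3, 79.7 and 88.8 CPM in NA10hd and 97.7, 97.5 and 108 CPM in NV HSC. Both genotypes lay wholly above control and overlapped with each other. The log2 fold change was 0.82 in NV (SE 0.20, adjusted p = 0.0315) and 0.78 in NA10hd (SE 0.23, adjusted p = 0.26), and in NA10hd over NV it was -0.05 (SE 0.20, adjusted p = 0.925). The call in NV was lost without control replicate 1 or any given NV library (adjusted p up to 0.134). Cxcl10, a chemokine that draws T cells, was at 27.7, 3.03, 17.8 and 4.31 CPM in control, 20.8, 6.13, 17.6 and 13.5 CPM in NA10hd and 35.8, 37.3 and 45.3 CPM in NV HSC. NV libraries were above all others, but control libraries differed widely and the log2 fold change of 1.60 in NV (SE 0.56, adjusted p = 0.131) did not pass. It passed without control replicate 1 (adjusted p = 0.0422), and by limma-voom with all libraries (adjusted p = 0.0186). In NA10hd the value was 0.14 (SE 0.63, adjusted p = 0.948).

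Levels were also compared between genes, as TPM (counts divided by exon length and scaled to a sum of 1000000 per library). The tested members had a median of 36.2 TPM in control, 39.8 TPM in NA10hd and 59.5 TPM in NV HSC, and in control libraries the median over all genes tested in NV against control was 16.4 TPM. In control HSC the highest levels were those of Psmb8 (301 ± 21.1 TPM, SD, n = 4), Lgals3bp (265 ± 11.7 TPM) and Ifi47 (199 ± 21.2 TPM), and the lowest that of Ifi204 (1.76 ± 1.46 TPM). In NV HSC Ifi47 stood at 437 ± 30.5 TPM (n = 3) and Psmb8 at 423 ± 44.3 TPM, a difference within their SD. Oas2, near the foot of the control order at 16.4 ± 4.89 TPM, was at 78.4 ± 10.6 TPM in NV HSC.

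**Figure D4:**
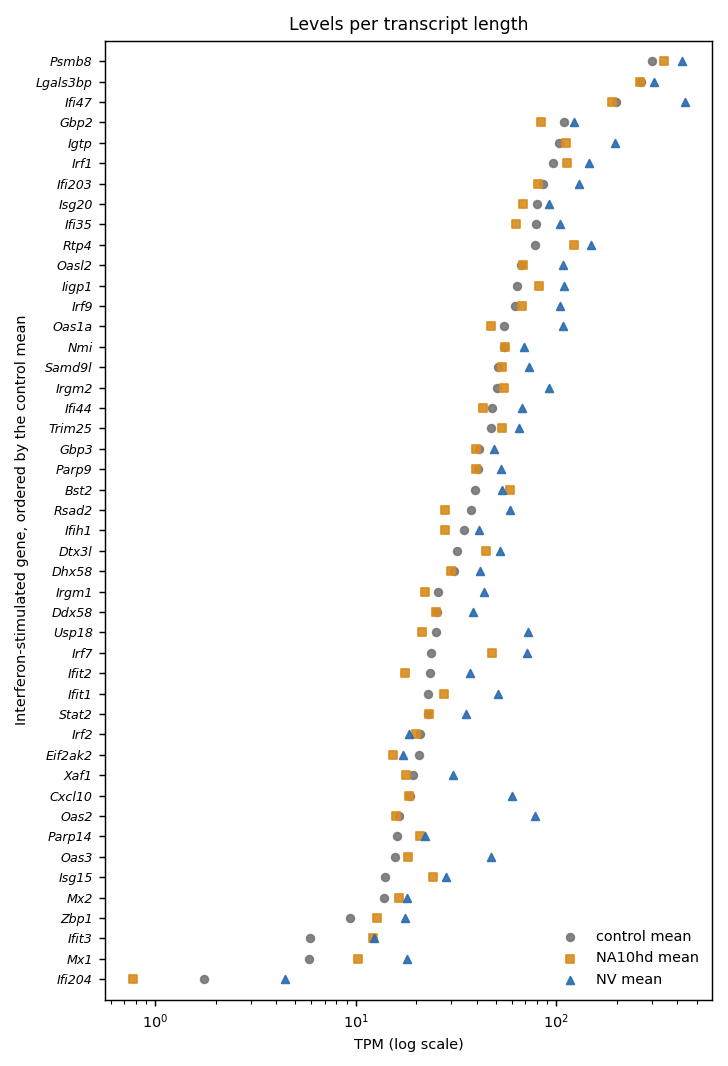
Mean TPM of the 46 tested members on a log axis, in the order of the control mean, for control (grey circles), NA10hd (orange squares) and NV (blue triangles). Members span 1.76 to 301 TPM in control, and the triangle of Oas2 lies at 78.4 TPM against 16.4 TPM for its circle.

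Pathway genes that are not members were read from a list of 61. Interferon ligands, 19 in all, had too few counts to be tested. They were at 0 counts in all libraries for 13 of the 19 genes, Ifng included, and the summed level of all 19 was at most 1.72 CPM in any library. A count of 0 in all libraries of a group allows up to 0.0836 CPM in control, 0.0745 CPM in NA10hd and 0.082 CPM in NV HSC, taken as 3 counts and for counting error only. Of the receptors and Jak kinases, 0 of the 8 tested were DEGs by edgeR in any contrast. Over all genes 4.76% were called in NV HSC, 0.00766% in NA10hd and 5.09% in NA10hd against NV, so 0 of 8 is near these shares. An unadjusted p under 0.05 was found for 3 in NV HSC and 2 in NA10hd, where 2626 of 13462 and 1552 of 13060 genes had one. By DESeq2 and limma-voom 0 of the 8 were called against control in either genotype. In NA10hd against NV, DESeq2 called 1 of them (Il10rb) and limma-voom 0. Ifnar1 was at 112, 86.9, 93.0 and 118 CPM in control, 118, 153, 112 and 80.3 CPM in NA10hd and 72.8, 86.0 and 86.5 CPM in NV HSC. NV libraries were below control for Ifnar1 (log2 fold change -0.33 in NV, SE 0.15, adjusted p = 0.251, and 0.18 in NA10hd, SE 0.20, adjusted p = 0.781). Ifnar2 was at 56.0, 49.7, 46.7 and 47.7 CPM in control, 64.5, 46.5, 61.4 and 25.7 CPM in NA10hd and 51.7, 52.8 and 59.4 CPM in NV HSC (0.12 in NV, SE 0.15, adjusted p = 0.735, and -0.01 in NA10hd, SE 0.26, adjusted p = 0.995). Its lowest library was NA10hd replicate 4, and the groups overlapped.

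The kinases and the interferon gamma receptor chains were not DEGs either. Jak1 was at 516, 528, 432 and 457 CPM in control, 503, 409, 414 and 397 CPM in NA10hd and 366, 422 and 399 CPM in NV HSC (log2 fold change -0.29 in NV, SE 0.11, adjusted p = 0.148, and -0.16 in NA10hd, SE 0.14, adjusted p = 0.682). Tyk2 was at 26.3, 28, 29.4 and 30.7 CPM in control, 27.4, 50.6, 29.4 and 41.8 CPM in NA10hd and 25.5, 38.7 and 28.5 CPM in NV HSC (0.11 in NV, SE 0.20, adjusted p = 0.835, and 0.39 in NA10hd, SE 0.25, adjusted p = 0.568). All NV libraries of Jak1 lay below control, and the groups of Tyk2 overlapped. Ifngr1 was at 80.5, 57.5, 72 and 70.4 CPM in control, 81.3, 109, 124 and 76.3 CPM in NA10hd and 98.2, 91.2 and 77.5 CPM in NV HSC (0.34 in NV, SE 0.16, adjusted p = 0.25, and 0.48 in NA10hd, SE 0.20, adjusted p = 0.373). Ifngr2 was at 5.19, 9.10, 8.62 and 9.56 CPM in control, 12.4, 15.4, 19.7 and 9.38 CPM in NA10hd and 8.84, 9.82 and 8.12 CPM in NV HSC (0.13 in NV, SE 0.33, adjusted p = 0.883, and 0.81 in NA10hd, SE 0.40, adjusted p = 0.449). Both chains overlapped between the groups.

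Of the 39 pathway genes tested in NV HSC, 2 were DEGs, Tap1 and Adar, and both were higher. This is 5.13% of the tested pathway genes, near the 4.76% of all genes. Tap1, a subunit of the peptide transporter of antigen presentation, was at 177, 172, 142 and 182 CPM in control, 138, 223, 292 and 235 CPM in NA10hd and 312, 353 and 316 CPM in NV HSC (log2 fold change 0.95 in NV, SE 0.12, adjusted p = 0.00132, and 0.40 in NA10hd, SE 0.21, adjusted p = 0.467). Adar, an RNA-editing enzyme, was at 53.3, 53.3, 47.2 and 60.7 CPM in control, 76.5, 65.5, 62.6 and 98.5 CPM in NA10hd and 85.0, 84.4 and 90.4 CPM in NV HSC (0.69 in NV, SE 0.14, adjusted p = 0.0157, and 0.50 in NA10hd, SE 0.20, adjusted p = 0.354). NV libraries of both genes lay above all control libraries. Adar was not called without NV replicate 2 or NV replicate 3 (adjusted p up to 0.0837). Nor was it called with all 3 groups in one fit or on libraries alike in Xist and Y-linked counts (adjusted p up to 0.0996). The inhibitors (Socs1 and Ptpn2 among the 6) and the 9 tested upstream sensors and adaptors held 0 DEGs by edgeR in NV HSC. With 4.76% of all genes called, 0 in groups of this size is near the share over all genes. An unadjusted p under 0.05 was found for 0 inhibitors and 2 upstream genes, where 2626 of 13462 genes had one. DESeq2 called 0 inhibitors and 2 of the upstream genes (Mb21d1, higher, and Tlr4, lower), and limma-voom called 0 of either. The median log2 fold change of the 39 genes was 0.12, against 0.55 for the members. In NA10hd HSC 0 of the 38 tested pathway genes were DEGs by edgeR, where 1 of all 13060 genes tested was called. An unadjusted p under 0.05 was found for 8 of them, and for 1552 of all genes. DESeq2 called 1 pathway gene (Ptpn2), where it called 2.0% of all genes, and limma-voom called 0.

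**Figure D5:**
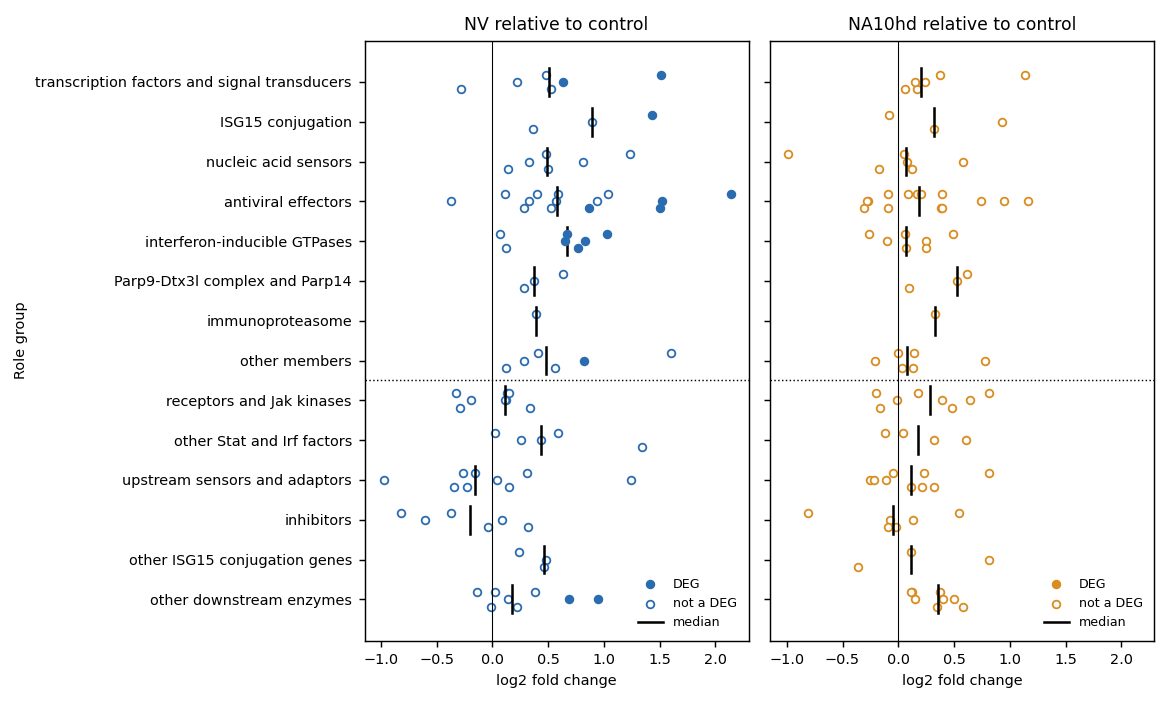
Log2 fold change of each tested gene in NV (left) and NA10hd (right) relative to control, by role; members are above the dotted line and other pathway genes below it, filled points are DEGs and black bars give the median of each role group. In the left panel 13 members and 2 other pathway genes are filled, all to the right of 0, and in the right panel 0 genes are filled.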

How the data were processed

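RNA-Seq counts of 11 HSC libraries were analysed, grouped by the genotype in their labels. The authors sorted 1000-cell aliquots, amplified cDNA, made Nextera XT libraries, used Hisat2 to align reads to NCBIM37, and deposited featureCounts output, raw counts per gene ID with no normalization. Versions, annotation release, strand setting and how multi-mapping reads were treated are not given in the sources used here. Symbols, positions and exon lengths came from GENCODE M1, also on NCBIM37. Of 37991 IDs, 37205 were found there and 786 had no symbol.

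Tests used edgeR 4.0.16 in R 4.3.3 (TMM, default filter on low counts, quasi-likelihood test) on all genes. Each comparison was fitted on its own libraries, and adjusted p (Benjamini-Hochberg) covered all genes tested. A DEG had an adjusted p under 0.05 and a fold above 1.5. CPM were scaled by TMM. Log2 fold changes came from the fit. SE was the absolute log2 fold change divided by the square root of the F statistic of the test. Member averages used log2(CPM + 1). Depth was 5464815 to 14283008 counts per library, and the limits set by 0 counts reflect counting error alone. The script was tested on simulated counts.

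Some genes of the pathway and marker lists are not reported here. The members and lists were chosen with earlier results of these data known. Values in every library were given for members called in any comparison and for a fixed set of anchor genes, and other members by counts or as the lowest or highest of their role group. Dtx3l, Oasl2, Zbp1, Mb21d1, Tlr4, Ptpn2, Il10rb and Ifit2 were named after their values were seen. Alternatives were DESeq2 1.42.0, limma-voom (limma 3.58.1), DESeq2 size factors within edgeR, no filter, a minimum of 10 counts per library, a joint fit of all 3 groups, the replicate number as a block, no fold threshold, each library left out, libraries alike in Xist and Y-linked counts, pseudocounts of 0.5 and 2 and, added after seeing the data, DESeq2 without NA10hd replicate 4. Promoters were RefSeq sequences of GRCm38.p6, and coordinates of the builds were not mixed. Figures were drawn with matplotlib 3.10.9.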

Additional observations from a re-analysis of the deposited data

Results flagged for a closer look

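In groups of 4 libraries, 70 sets of values (1 named gene in 1 group each) were tested for a library far from the others of its group, and chance flags about 1 in 20. There were 2 such values. Igtp was at 143 CPM in NA10hd replicate 2, where the other NA10hd libraries were at 100 to 107 CPM, and the gap was 0.837 of the range of the group. Jak1 was at 503 CPM in NA10hd replicate 1, where the others were at 397 to 414 CPM, and the gap was 0.84 of the range.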

How the results depend on the processing

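The count of members called in NV HSC stayed within 1.5 times the reported 13 under every alternative but all 3 groups in one fit, which gave 6, and 6 to 14 with a library left out (6 without NV replicate 2 or NV replicate 3). In NA10hd HSC the count was 0 except by DESeq2, which gave 1 (Irf7) with all libraries and 1 without NA10hd replicate 4, and 0 with each library left out in edgeR. In NA10hd against NV it was 8 by DESeq2 against the reported 5, and 1 to 6 with a library left out (2 without NV replicate 2, 1 without NV replicate 3). The cause of these differences was not tested. Fits that leave out a library have fewer samples. Over all genes, DEGs numbered 1 in NA10hd (240 by DESeq2, 39 with all 3 groups in one fit), 641 in NV (1015 by DESeq2, 155 with all 3 groups, 263 to 643 with a library left out) and 685 in NA10hd against NV (1489 by DESeq2, 1152 with all 3 groups, 146 to 771 with a library left out).

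Deviations of same-numbered libraries from their group means correlated between -0.109 and 0.034. Pairs with different numbers were not compared, so these values cannot exclude that libraries were paired. With the replicate block the members called were 10 in NV (9 of the 13), 0 in NA10hd and 4 in NA10hd against NV, where it called 3.21%, 0% and 4.32% of all genes, and the log2 fold change of Gbp2 in NV was -0.02. The fit on libraries alike in Xist and Y-linked counts gave 10 members in NV and 0 in NA10hd, and was not run for NA10hd against NV, where no NA10hd library held both.

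Among the fold changes of members and interferon pathway genes printed in the report, signs turned only for genes that were not DEGs of the contrast. Genes whose fold change between NA10hd and NV is not printed there are left out. In NA10hd against control, libraries alike in Xist and Y-linked counts gave log2 fold changes of -0.11 for Cxcl10, 0.15 for Ifnar2, 0.21 for Irgm1, 0.02 for Rsad2 and 0.11 for Usp18, and DESeq2 without NA10hd replicate 4 gave 0.20 for Ifnar2, 0.07 for Irgm1 and 0.05 for Usp18. With a library left out the NA10hd values ranged from -0.19 to 0.78 for Cxcl10, -0.04 to 0.13 for Ifi47, -0.15 to 0.21 for Ifnar2, -0.03 to 0.19 for Irf2, -0.23 to 0.08 for Irgm1, -0.21 to 0.03 for Oas1a, -0.06 to 0.28 for Oas2 and -0.37 to 0.06 for Usp18. In NV they ranged from -0.01 to 0.75 for Bst2, -0.02 to 0.16 for Gbp2, -0.03 to 0.21 for Ifngr2 and -0.09 to 0.23 for Tyk2, and in NA10hd against NV from -0.21 to 0.03 for Rtp4. The median of the members in NA10hd against NV was -0.30 without NV replicate 1. Depth limits Ifi204, Isg15 and Ifit3, which had the lowest counts of the members named.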
